A study of Glycine max with 54 samples.

Results

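The genes described here are 10 soybean genes that are named after components of the circadian clock and of the photoperiod pathway, taken by identifier from 53971 loci. They comprised the LHY/CCA1-like genes GLYMA07G05410 and GLYMA03G42260, the TOC1 genes GLYMA04G33110, GLYMA06G21120 and GLYMA05G00880, the GIGANTEA genes GLYMA10G36600 and GLYMA09G07240, the ELF3 gene GLYMA04G05280 and the CONSTANS-like genes GLYMA08G28370 and GLYMA13G07030. All 10 identifiers were found, on chromosomes 3 to 10 and 13 by the number in the identifier. The count files carry no gene names, so the names are those given with the list. The study's own annotation describes GLYMA03G42260 as a late elongated hypocotyl and circadian clock associated-1-like protein, places GLYMA07G05410 in the same MYB-related family, and describes GLYMA08G28370 as a CONSTANS protein of the DBB family. None of the 10 could be checked by sequence, and no sequence is shown.

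The study compared leaves with and without the soybean aphid (Aphis glycines) in 3 soybean genotypes, P203 (antixenosis, a resistance by which the plant is avoided), P746 (antibiosis, a resistance that harms the aphid) and the susceptible cultivar Dongnong47. Third-instar nymphs from a colony kept on Dongnong47 were caged on every leaflet of the first trifoliolate leaf (infested), and mock seedlings carried the same cages without aphids. The caged leaf areas were harvested at 24, 48 and 96 HAI (hours after the start of the infestation), with 3 libraries in each of the 18 groups, 54 libraries in all. Seedlings grew in 1 chamber regime with long days. The 3 times lie whole days after the start, so by the schedule alone leaves would be taken at the hour at which infestation started. The actual hour of the day is not given in the sources used here, so HAI and hour of the day cannot be told apart in these data.

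The plant clock is a loop of genes that repress each other over the day. LHY and CCA1 are MYB-type repressors whose transcripts peak around dawn in Arabidopsis, whereas TOC1, a pseudo-response regulator, and GIGANTEA, a large plant-specific protein, peak in the later part of the day. ELF3 belongs to the evening complex, a repressor of dusk and early night. GIGANTEA links the clock to CONSTANS, a zinc finger protein that activates flowering genes according to day length, and the GIGANTEA gene of chromosome 10 in soybean is known as the maturity locus E2. Below, the LHY/CCA1-like genes are called morning genes, and the TOC1 and GIGANTEA genes evening genes, after these roles.

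The libraries held between 16596420 and 34982780 estimated counts, with a median of 25886357 at 24 HAI, 19199831 at 48 HAI and 18575555 at 96 HAI. Levels are given as CPM (counts scaled to a common library size with TMM factors), which are not corrected for gene length, so levels of different genes are not compared. Several libraries went against their labels in genes that set the genotypes apart in mock leaves of 24 HAI. Of 67 genes that separated Dongnong47 from P203, 7.46% were Dongnong47-like in the Dongnong47 infested library of 96 HAI replicate 1, against at least 80.6% in the other Dongnong47 libraries, and 83.6% were Dongnong47-like in the P746 infested library of 48 HAI replicate 3. Of 68 genes that separated P203 from P746, between 89.7% and 95.6% resembled P203 in mock libraries labelled P746 at 48 and 96 HAI. In those of 24 HAI the share was 0% by construction, as the genes were picked from them. The share was between 55.9% and 94.1% in the infested libraries labelled P746 at 48 and 96 HAI, and 92.6%, 4.41% and 45.6% in those of 24 HAI. The names of genotypes below are therefore those of the labels, and a difference between P746 and another genotype, or between 24 HAI and later times within P746, cannot be told apart from this change. In genes of chromosomes 14 to 20 that are otherwise abundant, up to 53.5% had no value in a library. On chromosomes 1 to 13, which hold all 10 genes, that share was at most 0.319%. In Dongnong47 at 96 HAI, chromosomes 14 to 20 had 45.1%, 38.9% and 53.5% in mock libraries, against 2.72%, 4.31% and 0.165% in infested libraries. In other groups, such as Dongnong47 at 24 HAI, the infested libraries had the higher shares. Missing values were counted as 0 and kept in the tests, so the shares of all loci given below include such loci.

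The medians of the morning genes were lowest at 96 HAI, and those of the evening genes were highest at 96 HAI. GLYMA07G05410 had a median of 424 CPM at 24 HAI (lowest 257, highest 869), 326 CPM at 48 HAI (30.7 to 936) and 61.1 CPM at 96 HAI (14.2 to 483), with 18 libraries at each time. GLYMA03G42260 had medians of 596, 209 and 20.2 CPM at these times. The P746 infested libraries of 48 HAI replicate 3 and 96 HAI replicate 1 are described separately. Without both, the lowest level of GLYMA07G05410 at 48 HAI (184 CPM) was above its highest level at 96 HAI (155 CPM). The same held for GLYMA03G42260 (106 and 33.1 CPM). Both libraries were picked because their clock genes stood apart, so this separation follows in part from that choice.

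**Figure D1:**
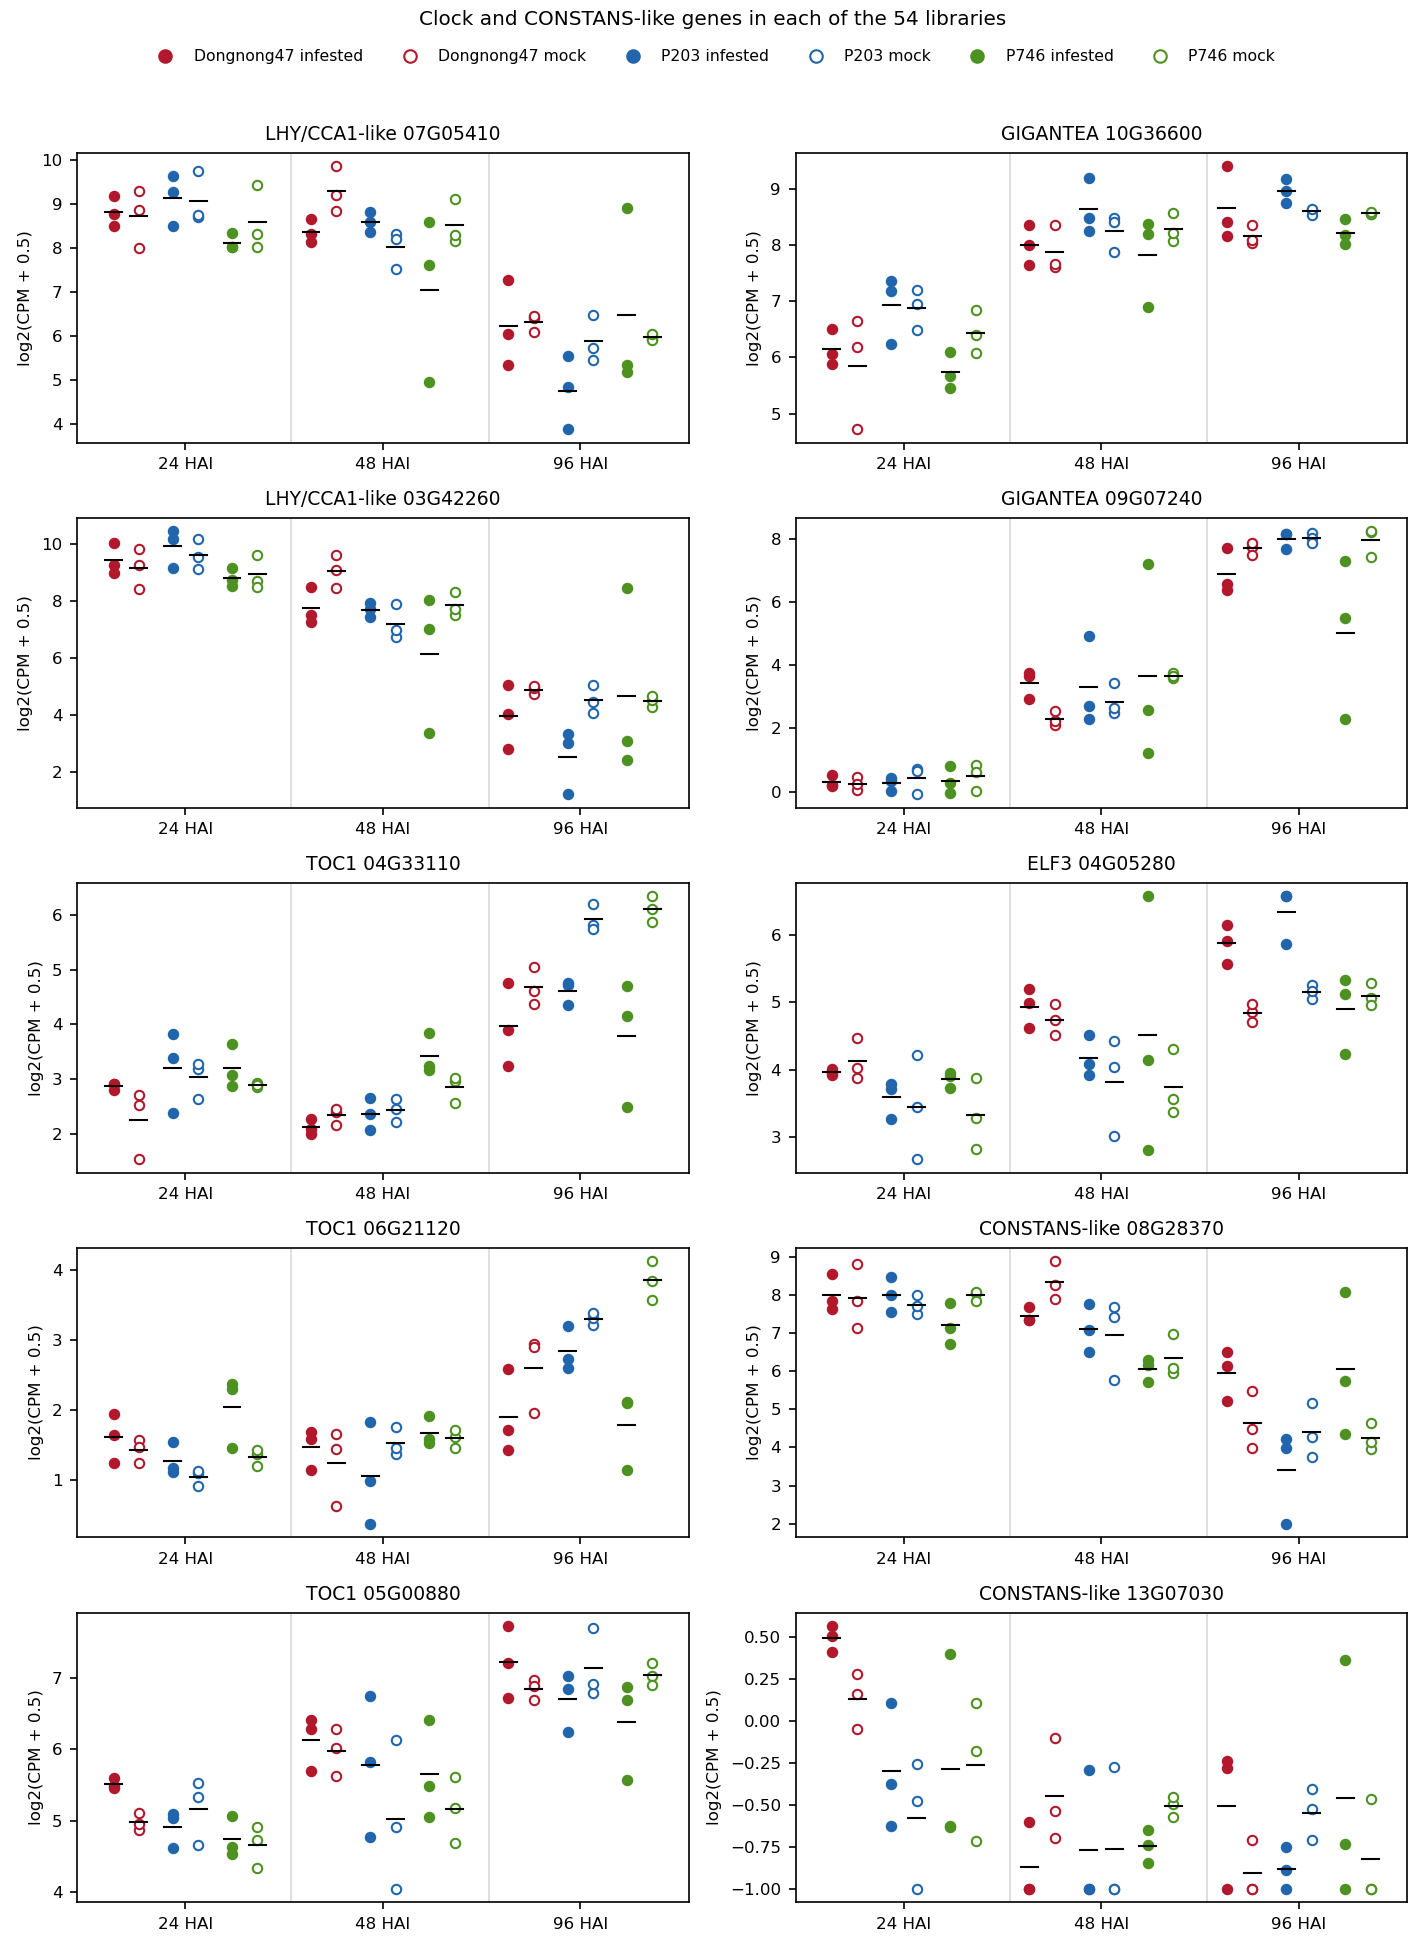
Level of each of the 10 genes in each of the 54 libraries, as log2(CPM + 0.5) on the vertical axis, by time point (24, 48 and 96 HAI) on the horizontal axis. Each point is 1 library, filled for infested and open for mock leaves and coloured by genotype, and the short black line is the mean of 3 libraries. The LHY/CCA1-like genes lie lower at 96 HAI than at 48 HAI apart from 1 P746 infested library at each time, whereas the levels of TOC1 GLYMA05G00880 and GIGANTEA GLYMA10G36600 at 48 and 96 HAI overlap.

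Both GIGANTEA genes were lowest at 24 HAI. GLYMA09G07240 had a median of 0.724 CPM at 24 HAI (0.44 to 1.31), 6.57 CPM at 48 HAI (1.84 to 146) and 209.7 CPM at 96 HAI (4.43 to 302). GLYMA10G36600, the gene on the chromosome of E2, had a median of 79.3 CPM at 24 HAI, 299.6 CPM at 48 HAI and 373 CPM at 96 HAI, and its range at 96 HAI (258 to 679 CPM) overlapped that at 48 HAI (119 to 584 CPM).

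The medians of the TOC1 genes were highest at 96 HAI, to different degrees. GLYMA04G33110 had medians of 6.95, 4.96 and 26.1 CPM at 24, 48 and 96 HAI. GLYMA06G21120 had medians of 2.14, 2.44 and 6.56 CPM. GLYMA05G00880 had medians of 31.5, 50.1 and 118 CPM, and its range at 48 HAI (16 to 107 CPM) overlapped those at both other times. ELF3 (GLYMA04G05280) had medians of 14.2, 20.2 and 36.6 CPM. The CONSTANS-like gene GLYMA08G28370 followed the morning genes, with medians of 228, 148 and 20.9 CPM. The other CONSTANS-like gene, GLYMA13G07030, was hardly expressed, with a highest level of 0.981 CPM, an estimated count of at most 32 and any count at all in 40 of the 54 libraries.

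These steps were tested with edgeR (quasi-likelihood, with the p-value adjusted over all loci of a comparison) between adjacent times within each genotype and treatment, 12 comparisons in all. Calls needed a log2 fold change of 1 or more in either direction together with an adjusted p below 0.05. GLYMA13G07030 passed the filter on low counts in 1 of these comparisons and the 9 others in all of them. Over the 12 comparisons 31 calls were made, 19 higher and 12 lower at the later time, and DESeq2 made 55. In the single comparisons DESeq2 called between 0.352% and 28.8% of the loci it fitted. Of the 31, 10 were made again in every fit that left out 1 library. Leaves are bulk samples, in which fewer cells of a type and less RNA per cell cannot be told apart. The study describes its 3 samples of a group as independent, and the p-values measure the spread between them. Soybean carries many gene pairs from an old genome duplication, and reads that fit both copies of a pair could have been split between them.

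In mock leaves of Dongnong47 between 48 and 96 HAI, 5 of the 9 genes tested were called, 2 higher and 3 lower, beside 18.9% of all loci. GLYMA03G42260 had 26.1, 30.6 and 31.7 CPM at 96 HAI, against 350.2, 547 and 789 CPM at 48 HAI, so that all 3 later libraries lay below all 3 earlier ones (log2 fold change -4.25 ± 0.38, SE, adjusted p = 0.00182). GLYMA07G05410 had 67.6, 84.7 and 88.0 CPM at 96 HAI, against 460.0, 590.1 and 936 CPM at 48 HAI (-3.04 ± 0.35, adjusted p = 0.00441). GIGANTEA GLYMA09G07240 had 211, 229 and 179 CPM at 96 HAI, against 3.79, 5.29 and 4.16 CPM at 48 HAI (5.56 ± 0.24, adjusted p = 0.00125). The groups of this gene did not come near each other, and the later level was the higher one in each of the 3 libraries. TOC1 GLYMA04G33110 had 32.8, 24.1 and 20.3 CPM at 96 HAI, against 4.78, 4.97 and 3.99 CPM at 48 HAI (2.50 ± 0.24, adjusted p = 0.00242). CONSTANS-like GLYMA08G28370 had 22.0, 15.3 and 44.1 CPM at 96 HAI, against 237, 308 and 476 CPM at 48 HAI (-3.64 ± 0.53, adjusted p = 0.00947). All 5 calls held with any 1 of the 6 libraries left out (highest adjusted p = 0.039, for GLYMA08G28370). With the replicate number as a block the 5 genes were called at an adjusted p of 0.0436 each, and TOC1 GLYMA06G21120 was called in addition (1.60, adjusted p = 0.0444, against 0.0677 without the block).

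In mock leaves of P746, 8 of 9 genes were called between 48 and 96 HAI, 5 higher and 3 lower, beside 12.9% of all loci. GIGANTEA GLYMA10G36600 was the exception, with 375, 376 and 384 CPM at 96 HAI and 267, 295 and 379 CPM at 48 HAI. GLYMA07G05410 had 62.0, 60.2 and 66.1 CPM at 96 HAI, against 288, 314 and 557 CPM at 48 HAI (log2 fold change -2.57 ± 0.32, adjusted p = 0.0131), and GLYMA03G42260 changed by -3.36 ± 0.28 (adjusted p = 0.00832). GLYMA04G33110 had 58.0, 68.7 and 81.3 CPM at 96 HAI, against 5.42, 7.30 and 7.62 CPM at 48 HAI (3.40 ± 0.23, adjusted p = 0.00785), GLYMA06G21120 changed by 2.53 ± 0.22 (adjusted p = 0.00851) and GLYMA05G00880 by 1.90 ± 0.29 (adjusted p = 0.0174). GLYMA09G07240 had 169, 292 and 302 CPM at 96 HAI, against 11.5, 12.97 and 12.2 CPM at 48 HAI (4.42 ± 0.28, adjusted p = 0.00785). ELF3 (1.38 ± 0.31, adjusted p = 0.0419) and CONSTANS-like GLYMA08G28370 (-2.12 ± 0.39, adjusted p = 0.0253) were called as well. The calls of GLYMA03G42260, GLYMA04G33110 and GLYMA09G07240 held with any 1 library left out. GLYMA07G05410 lost its call without mock 96 HAI replicate 3 (adjusted p = 0.0676), GLYMA06G21120 without mock 48 HAI replicate 1 (adjusted p = 0.0501), and those of GLYMA05G00880, ELF3 and GLYMA08G28370 were lost without each of 3, 5 and 4 libraries in turn (highest adjusted p of 0.0767, 0.125 and 0.108).

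In mock leaves of P203, 4 genes were called between 48 and 96 HAI, 3 higher and 1 lower, beside 3.71% of all loci, and DESeq2 called 8, beside 13.5% of the loci it fitted. GLYMA03G42260 had 16.3, 21.4 and 32.5 CPM at 96 HAI, against 106, 238 and 127 CPM at 48 HAI (log2 fold change -2.76 ± 0.44, adjusted p = 0.0407). GLYMA04G33110 had 55.8, 52.9 and 73.4 CPM at 96 HAI, against 4.94, 4.13 and 5.74 CPM at 48 HAI (3.60 ± 0.27, adjusted p = 0.0192). GLYMA06G21120 changed by 1.95 ± 0.25 (adjusted p = 0.0313), and GLYMA09G07240 had 289, 258 and 231 CPM at 96 HAI, against 5.04, 10.2 and 5.70 CPM at 48 HAI (5.21 ± 0.40, adjusted p = 0.0192). None of the 4 calls held in every fit that left out 1 library (highest adjusted p = 0.168), and with the replicate number as a block none was made (adjusted p = 0.147 for each).

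With edgeR, infested leaves gave fewer calls between 48 and 96 HAI than mock leaves, beside a lower share of all loci called in each genotype. In mock leaves DESeq2 called 6 genes in Dongnong47, beside 21.0% of the loci it fitted, and 8 in P746, beside 16.8%. The difference between infested and mock leaves in this step was tested as an interaction, given below. In Dongnong47, only GIGANTEA GLYMA09G07240 was called, beside 2.44% of all loci, with 82.4, 93.2 and 208 CPM at 96 HAI, against 12.95, 11.97 and 7.09 CPM at 48 HAI (log2 fold change 3.59 ± 0.48, adjusted p = 0.0165), and DESeq2 called 6 genes, beside 7.41% of the loci it fitted. Without 96 HAI replicate 1, the library that went against its label, its adjusted p was 0.0354, and without any 1 of the 48 HAI libraries it was between 0.0546 and 0.0757. In P203, no gene was called, beside 0.0615% of all loci. An unadjusted p under 0.05 was found for 7 genes, beside 2249 of the 32544 loci tested. DESeq2 called 7, beside 2.58% of the loci it fitted. GLYMA03G42260 had 9.56, 7.57 and 1.83 CPM at 96 HAI, against 209.7, 173 and 243 CPM at 48 HAI (-5.02 ± 0.72, adjusted p = 0.121 with edgeR and 1.46e-11 with DESeq2). GLYMA04G33110 had 25.8, 26.6 and 19.97 CPM at 96 HAI, against 4.63, 5.83 and 3.71 CPM at 48 HAI (2.37 ± 0.28, adjusted p = 0.0726). In P746, edgeR and DESeq2 each called 0 genes, and none had an unadjusted p under 0.05 with edgeR, beside 1611 of the 33348 loci tested. Of all loci, edgeR called 0%, and DESeq2 called 0.352% of those it fitted. The fitted log2 fold changes of the morning genes were -0.10 each, and all groups overlapped.

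**Figure D2:**
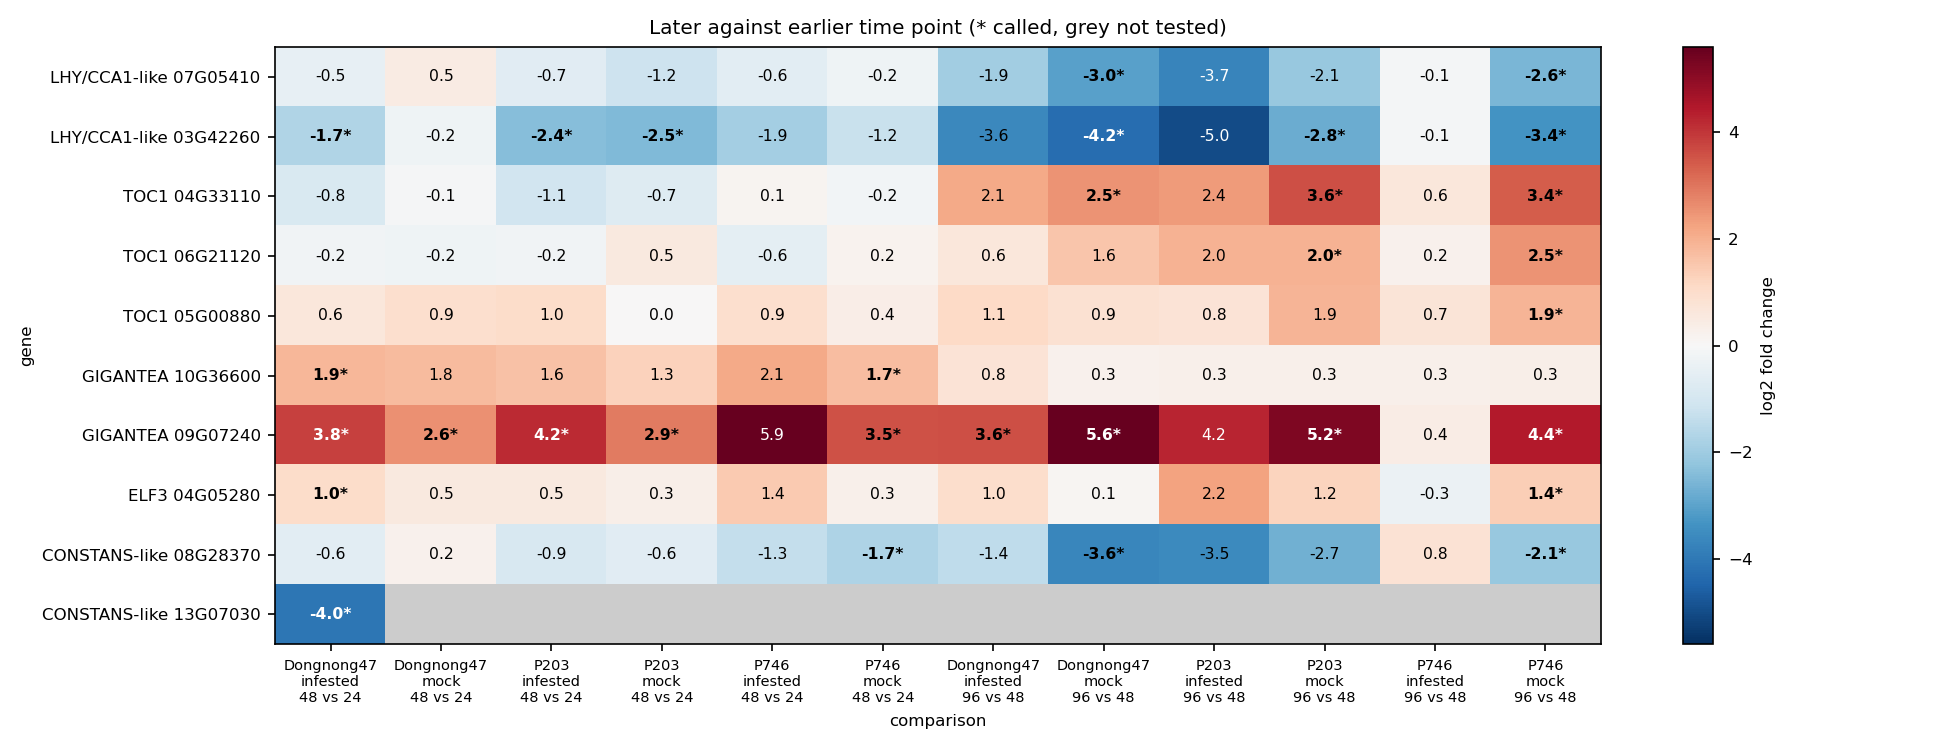
Log2 fold change of each gene (rows) between adjacent times, later against earlier, in each genotype and treatment (columns), from edgeR. Red is higher and blue lower at the later time, bold values with a star were called, and grey cells were not tested. GIGANTEA GLYMA09G07240 is positive in all 12 columns, and the column of P746 infested leaves at 96 against 48 HAI is pale, with values between -0.34 and 0.79.

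Between 24 and 48 HAI the calls were mostly of GIGANTEA genes. GIGANTEA GLYMA09G07240 was called higher at 48 HAI in 5 of the 6 comparisons, and GIGANTEA GLYMA10G36600 in 2. All 3 libraries of 48 HAI lay above all 3 of 24 HAI for both genes in each of the 6 comparisons. The share of all loci with such a separation was not counted. In infested leaves of Dongnong47, GLYMA10G36600 had 257, 326 and 199 CPM at 48 HAI, against 66.1, 58.4 and 90.8 CPM at 24 HAI (log2 fold change 1.86 ± 0.27, adjusted p = 0.00399). In the same leaves GLYMA09G07240 had 12.95, 11.97 and 7.09 CPM at 48 HAI, against 0.640, 0.663 and 0.930 CPM at 24 HAI (3.82 ± 0.33, adjusted p = 0.0013). Both calls held with any 1 library left out. Of the morning genes only GLYMA03G42260 was called lower at 48 HAI, in 3 comparisons, and GLYMA07G05410 in none. In infested leaves of P203, GLYMA03G42260 had 209.7, 173 and 243 CPM at 48 HAI, against 578, 1412 and 1150.5 CPM at 24 HAI (-2.38 ± 0.48, adjusted p = 0.0449), a call that was lost with any 1 library left out (adjusted p up to 0.169).

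The number of genes called between 24 and 48 HAI was 5 in infested leaves of Dongnong47, 3 higher and 2 lower, beside 32.5% of all loci, and 1 in mock leaves beside 4.84%. It was 2 in infested leaves of P203 beside 7.36% and 2 in mock leaves beside 6.97%. In P746 it was 3 in mock leaves beside 8.47%, and 0 in infested leaves beside 0% of loci. In these infested leaves 3 genes had an unadjusted p under 0.05 with edgeR, beside 6586 of the 34824 loci tested. DESeq2 called 2 genes there, beside 5114 of the 48570 loci it fitted. The 5 calls in infested Dongnong47 included ELF3 at 1.01 ± 0.18 (adjusted p = 0.00769), which was lost without 4 of the 6 libraries, where the log2 fold change fell short of 1 (lowest 0.88). They also included CONSTANS-like GLYMA13G07030, with 0.159, 0 and 0 CPM at 48 HAI, against 0.981, 0.922 and 0.826 CPM at 24 HAI, its only call (-4.04 ± 0.94, adjusted p = 0.0179, up to 0.0599 with 1 library left out). In mock leaves the calls of GLYMA09G07240 reached an adjusted p of 0.0967 in Dongnong47, 0.101 in P203 and 0.0629 in P746 with 1 library left out, and those of GLYMA03G42260 in P203 and of GLYMA10G36600 and GLYMA08G28370 in P746 reached 0.138, 0.123 and 0.162. In infested leaves those of GLYMA03G42260 in Dongnong47 and of GLYMA09G07240 in P203 reached 0.113 and 0.182. No called gene changed its direction with total counts in place of TMM, a scaling that moved the median of chromosome 1 to 13 genes by up to 0.89 on the log2 scale in these 12 comparisons.

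The contrast between the gene groups was summarised for each library as the mean log2(CPM + 0.5) of the 2 morning genes minus that of the 5 evening genes. Being a ratio within a library, it hardly moves with the scaling. Its absolute value and sign depend on the lengths of the genes, so only its differences between libraries are read. The difference had a median of 5.58 at 24 HAI (lowest 5.14, highest 6.91), 3.82 at 48 HAI (-1.25 to 5.82) and -1.45 at 96 HAI (-3.53 to 4.70), with 18 libraries at each time. Over all libraries the ranges at 48 and 96 HAI overlapped. Without both P746 libraries the ranges were 3.35 to 5.82 at 48 HAI and -3.53 to 0.14 at 96 HAI. Those libraries were picked because their clock genes stood apart, so the lack of overlap follows in part from that choice. With the GIGANTEA genes alone as evening genes, the ranges without both libraries were 1.32 to 4.46 at 48 HAI and -5.997 to -2.18 at 96 HAI, and with the TOC1 genes alone 3.67 to 6.72 and -1.89 to 1.82.

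**Figure D3:**
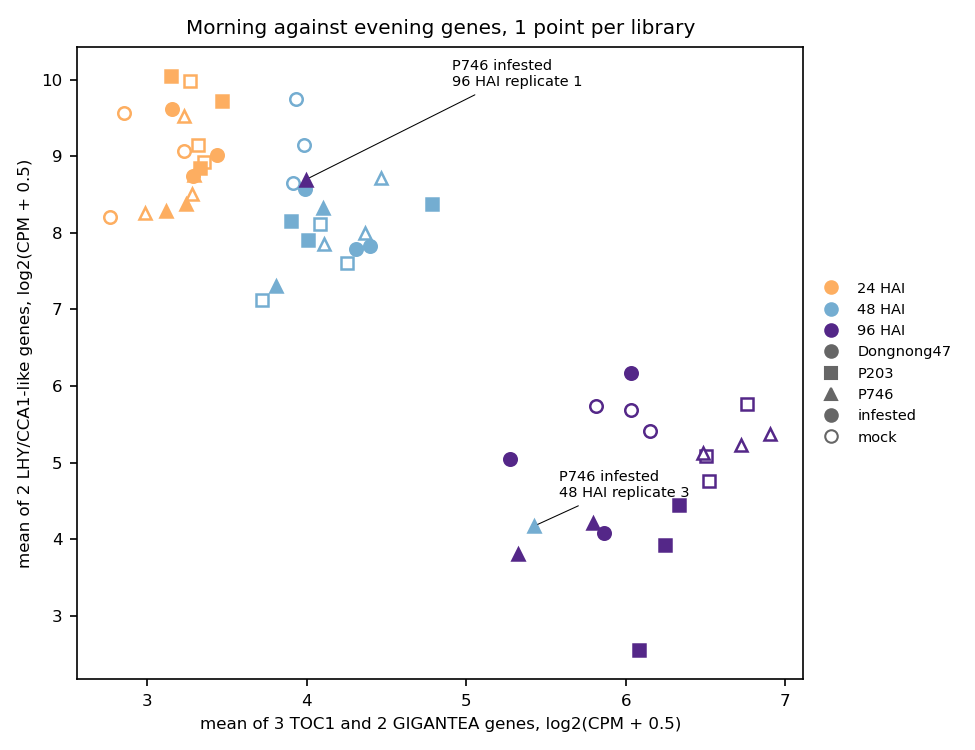
Mean log2(CPM + 0.5) of the 2 LHY/CCA1-like genes (vertical axis) against that of the 3 TOC1 and 2 GIGANTEA genes (horizontal axis), 1 point per library. Colour gives the time, shape the genotype, and filled points are infested and open points mock leaves. The libraries of 24 and 48 HAI lie at the top left and those of 96 HAI at the bottom right, and the 2 named P746 infested libraries lie among those of the other time.

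Within each time the difference was given for the groups as mean ± SD of 3 libraries. At 24 HAI it was 5.84 ± 0.55 in infested and 5.997 ± 0.64 in mock leaves of Dongnong47, 6.22 ± 0.70 in infested and 6.04 ± 0.60 in mock leaves of P203, and 5.26 ± 0.18 in infested and 5.601 ± 0.60 in mock leaves of P746. Infested and mock leaves overlapped in every genotype at this time. At 48 HAI it was 3.83 ± 0.65 in infested leaves of Dongnong47 against 5.24 ± 0.54 in mock leaves, the only genotype and time before 96 HAI at which the 2 groups did not overlap (highest infested 4.59, lowest mock 4.74). In P203 it was 3.91 ± 0.33 in infested and 3.60 ± 0.38 in mock leaves of 48 HAI. At 96 HAI it was -0.62 ± 1.02 in infested and -0.39 ± 0.33 in mock leaves of Dongnong47. In P203 at 96 HAI it was -2.58 ± 0.85 in infested and -1.39 ± 0.38 in mock leaves, again with no overlap (highest infested -1.89, lowest mock -1.76). Mock leaves of P746 had 3.88 ± 0.33 at 48 HAI and -1.46 ± 0.09 at 96 HAI. These differences between groups were not tested.

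The spread was largest in infested leaves of P746, at 2.15 ± 2.97 at 48 HAI and 0.53 ± 3.61 at 96 HAI, and 2 libraries stood apart there. In replicate 3 of 48 HAI, GLYMA07G05410 was at 30.7 CPM, against 195 and 384 CPM in the other 2 libraries, and GLYMA03G42260 at 9.94 CPM, against 128 and 264 CPM. The same library had 146 CPM of GIGANTEA GLYMA09G07240, against 1.84 and 5.47 CPM, and 94.8 CPM of ELF3, against 17.1 and 6.52 CPM. In replicate 1 of 96 HAI, GLYMA07G05410 was at 483 CPM, against 35.6 and 39.9 CPM in the other 2 libraries, and GLYMA03G42260 at 355 CPM, against 4.91 and 8.04 CPM. That library had 4.43 CPM of GLYMA09G07240, against 44.4 and 155 CPM, and 267 CPM of CONSTANS-like GLYMA08G28370, against 52.8 and 19.8 CPM. The difference of morning and evening genes was -1.25 in the first of these libraries and 4.70 in the second, each inside the range of the other time. The library of 48 HAI is also the one in which 83.6% of markers were Dongnong47-like. The part of a different plant, hour or label in these 2 libraries was not tested. Without both, the edgeR log2 fold changes of P746 infested leaves at 96 against 48 HAI were -2.93 for GLYMA07G05410, -4.91 for GLYMA03G42260 and 4.78 for GLYMA09G07240. They lay in the direction of the other 5 comparisons, with an adjusted p of 0.999 each in a fit of 2 against 2 libraries. The libraries were picked because these same genes stood apart, so this direction is no separate evidence.

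Over the 9 comparisons of infested with mock leaves, edgeR called 3 (12 at an unadjusted p under 0.05), all at 96 HAI and each a different gene, and DESeq2 called 9, beside 0.231% to 18.1% of the loci it fitted in the single comparisons. With edgeR, between 964 (of 33549) and 8555 (of 32253) loci had an unadjusted p under 0.05 in the single comparisons. At 24 HAI, 0 genes were called in Dongnong47, P203 and P746, beside 1%, 0% and 0% of all loci, and DESeq2 called 0 in each. Only TOC1 GLYMA05G00880 in Dongnong47 had an unadjusted p under 0.05 at that time, beside 2868 of the 34534 loci tested there. It had 43.5, 44.3 and 48.2 CPM in infested and 28.7, 30.6 and 34.0 CPM in mock leaves (log2 fold change 0.54 ± 0.15, adjusted p = 0.355).

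At 48 HAI, 0 genes were called in Dongnong47, P203 and P746, beside 5.35%, 0.0655% and 0% of all loci. In Dongnong47, 4 of 9 genes tested had an unadjusted p under 0.05, beside 8555 of the 32253 loci tested. Both morning genes and GLYMA08G28370 were lower and GLYMA09G07240 was higher in infested leaves. GLYMA07G05410 had 284, 319 and 406 CPM in infested leaves, against 460.0, 590.1 and 936 CPM in mock leaves (log2 fold change -0.94 ± 0.30, adjusted p = 0.118). GLYMA03G42260 had 181, 152 and 358 CPM in infested leaves, against 350.2, 547 and 789 CPM in mock leaves (-1.25 ± 0.43, adjusted p = 0.137 with edgeR and 0.016 with DESeq2). GIGANTEA GLYMA09G07240 had 12.95, 11.97 and 7.09 CPM in infested leaves, against 3.79, 5.29 and 4.16 CPM in mock leaves (1.302 ± 0.29, adjusted p = 0.0563 with edgeR, 0.00264 with DESeq2 and 0.0276 with genes of chromosomes 1 to 13 alone). In P203 and P746, no gene had an unadjusted p under 0.05 at this time, and DESeq2 called 0. Of the loci tested, 1767 of 32059 in P203 and 2192 of 32777 in P746 had such a p. In P746 the fitted values rest on replicate 3 of infested leaves: that of GLYMA09G07240 was 2.09 with it and -1.71 without it, and that of ELF3 was 1.57 and -0.14.

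At 96 HAI, 1 of 9 genes tested was called in each genotype, beside 4.85% of all loci in P746, 4.98% in P203 and 9.26% in Dongnong47. With 9 genes, 1 call is too few to set apart from these shares, which also include loci with missing values. ELF3 (GLYMA04G05280) had 59.8, 47.0 and 70.5 CPM in infested leaves of Dongnong47, against 28.5, 25.5 and 31.0 CPM in mock leaves, so that it rose by 1.06 ± 0.23 on the log2 scale (adjusted p = 0.0468). In P203 ELF3 had 95.2, 94.9 and 57.5 CPM in infested leaves, against 37.8, 32.7 and 35.4 CPM in mock leaves (1.21 ± 0.28, adjusted p = 0.0674 with edgeR and 1.56e-04 with DESeq2). In P746 it had 18.4, 39.7 and 34.4 CPM in infested and 38.5, 32.9 and 30.6 CPM in mock leaves. The groups of ELF3 thus did not overlap in 2 of the 3 genotypes, a pattern that was not counted over all loci. Without the Dongnong47 infested library of replicate 1 its adjusted p in Dongnong47 was 0.0918, without any other 1 library it was between 0.0654 and 0.149, and with the replicate number as a block it was 0.102.

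TOC1 GLYMA04G33110 had 25.8, 26.6 and 19.97 CPM in infested leaves of P203 at 96 HAI, against 55.8, 52.9 and 73.4 CPM in mock leaves (log2 fold change -1.35 ± 0.26, adjusted p = 0.0478). In P746 it had 5.15, 17.3 and 25.4 CPM in infested leaves, against 58.0, 68.7 and 81.3 CPM in mock leaves (-2.09 ± 0.58, adjusted p = 0.127 with edgeR and 0.00168 with DESeq2). In Dongnong47 its groups overlapped, at 26.5, 8.97 and 14.5 CPM in infested and 32.8, 24.1 and 20.3 CPM in mock leaves. TOC1 GLYMA06G21120 had 1.72, 3.78 and 3.84 CPM in infested leaves of P746, against 11.4, 13.9 and 17.0 CPM in mock leaves (-2.15 ± 0.38, adjusted p = 0.0378), and the 3 infested libraries lay below the 3 mock libraries in P203 too (5.57, 8.70 and 6.12 against 8.75, 9.46 and 9.92 CPM, -0.48, adjusted p = 0.358). The call in P203 was lost without any 1 of the 6 libraries (adjusted p between 0.0605 and 0.155), and so was that in P746 (0.0525 to 0.145, 0.0525 and -1.87 without infested replicate 1).

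The remaining genes were not called at 96 HAI. GLYMA03G42260 had 9.56, 7.57 and 1.83 CPM in infested leaves of P203, against 16.3, 21.4 and 32.5 CPM in mock leaves (log2 fold change -1.90 ± 0.67, adjusted p = 0.159 with edgeR and 0.017 with DESeq2). In P746 its fitted fold change was 2.51 with infested replicate 1 and -1.77 without it, that of GLYMA07G05410 was 1.61 and -0.72, and that of GLYMA08G28370 was 2.62 and 0.94. GLYMA08G28370 had 36.8, 69.7 and 90.9 CPM in infested and 22.0, 15.3 and 44.1 CPM in mock leaves of Dongnong47 (1.27, adjusted p = 0.199). With total counts in place of TMM the median of chromosome 1 to 13 genes moved by -0.68 on the log2 scale in Dongnong47 at 96 HAI and by 0.63 at 48 HAI. The directions of GLYMA07G05410, GLYMA05G00880 and GLYMA10G36600 at 96 HAI and of GLYMA04G33110 at 48 HAI flipped with it in Dongnong47, none of which was called. The log2 ratio of mean CPM of ELF3 in Dongnong47 at 96 HAI was 0.36 with total counts.

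**Figure D4:**
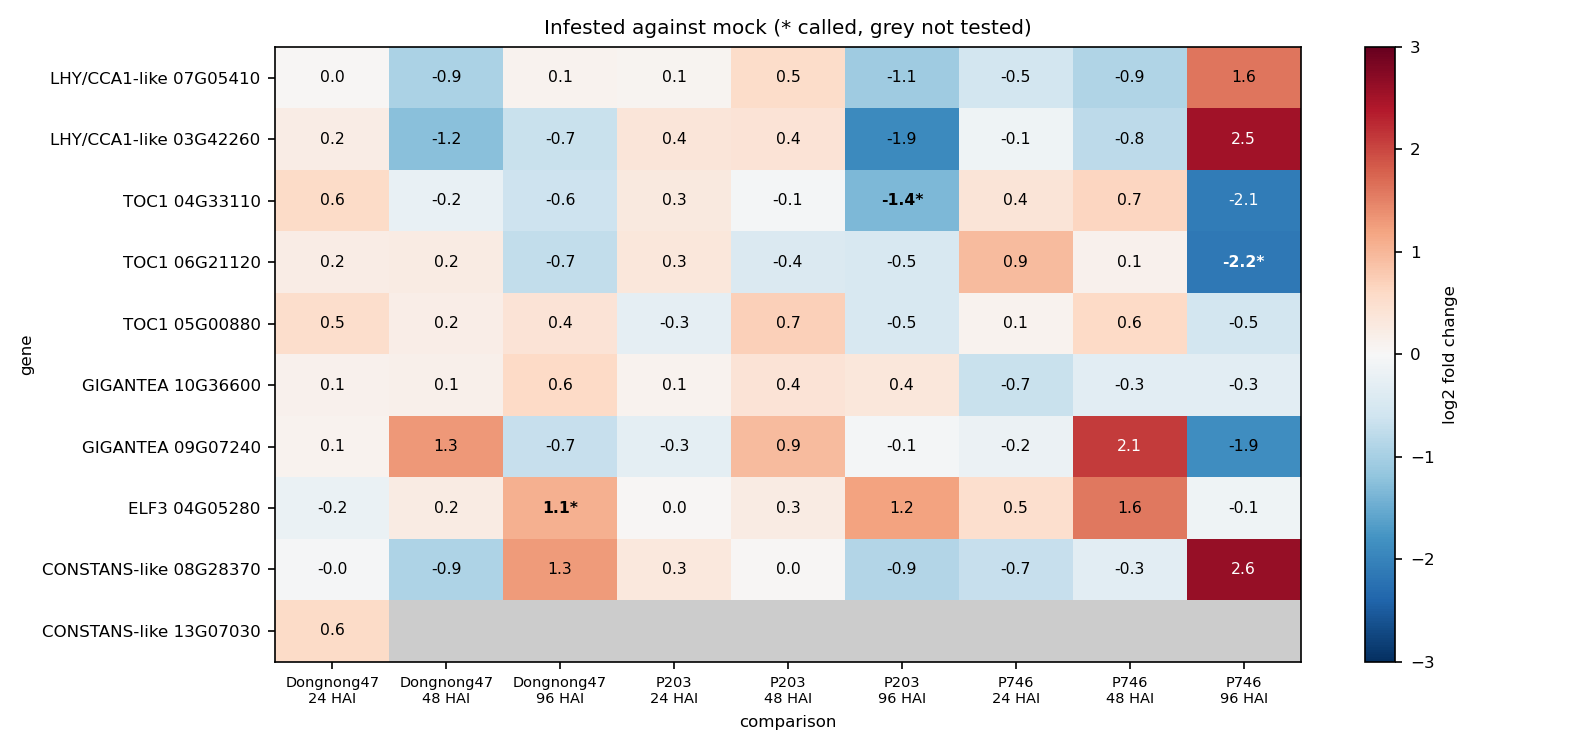
Log2 fold change of each gene (rows), infested against mock leaves, in each genotype and time (columns), from edgeR. Red is higher and blue lower in infested leaves, the 3 bold values with a star were called, and grey cells were not tested. The stars are ELF3 in Dongnong47 (1.06), TOC1 GLYMA04G33110 in P203 (-1.35) and TOC1 GLYMA06G21120 in P746 (-2.15), all at 96 HAI.

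Of the 9 comparisons of mock leaves between genotypes, only P746 against Dongnong47 at 48 HAI gave calls, 2 of 9 genes tested, beside 12.2% of all loci. GIGANTEA GLYMA09G07240 had 11.5, 12.97 and 12.2 CPM in P746, against 3.79, 5.29 and 4.16 CPM in Dongnong47 (log2 fold change 1.48 ± 0.21, adjusted p = 0.0169). CONSTANS-like GLYMA08G28370 had 61.4, 67.4 and 126 CPM in P746, against 237, 308 and 476 CPM in Dongnong47 (-1.98 ± 0.42, adjusted p = 0.0369). With the replicate number as a block GLYMA03G42260 was called in addition, with 184, 209 and 317 CPM in P746 against 350.2, 547 and 789 CPM in Dongnong47 (-1.20, adjusted p = 0.0473, against 0.0939 without it). The call of GLYMA09G07240 was lost without 3 and that of GLYMA08G28370 without 5 of the 6 libraries (highest adjusted p of 0.0697 and 0.135).

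In the other 8 comparisons of mock leaves edgeR called 0 genes. P203 against Dongnong47 had 0.236%, 3.39% and 0.594% of all loci called at 24, 48 and 96 HAI. An unadjusted p under 0.05 was found for 0, 2 and 1 of the clock genes, beside 1795 of 33439, 7279 of 32218 and 2591 of 31832 loci. DESeq2 called 0, 2 and 1, beside 1.52%, 10.6% and 2.77% of the loci it fitted. At 48 HAI the median absolute log2 fold change was 0.73 for the clock genes and 0.53 over all loci tested. The genes called by DESeq2 at that time were the morning genes, with 184, 321 and 295 CPM of GLYMA07G05410 in P203 against 460.0, 590.1 and 936 CPM in Dongnong47 (log2 fold change -1.33 ± 0.39, adjusted p = 0.134 with edgeR and 0.0197 with DESeq2), and GLYMA03G42260 at -1.86 ± 0.45 (adjusted p = 0.0954 and 0.00326). P746 against Dongnong47 had 0.415% and 0.802% of loci called at 24 and 96 HAI. At an unadjusted p under 0.05 were 0 and 3 genes, beside 2736 of 33774 and 2019 of 31795 loci. DESeq2 called 0 and 2, beside 2.08% and 2.06% of the loci it fitted. The 2 were TOC1 GLYMA04G33110 (58.0, 68.7 and 81.3 against 32.8, 24.1 and 20.3 CPM at 96 HAI, 1.44 ± 0.23, adjusted p = 0.084 with edgeR) and TOC1 GLYMA06G21120. P746 against P203 had 0.185%, 0.028% and 0.0628% of loci called at 24, 48 and 96 HAI, with 0 genes called by DESeq2. At an unadjusted p under 0.05 were 0, 1 and 1 genes, beside 2783 of 33515, 1841 of 32127 and 593 of 31850 loci. At 96 HAI the median absolute log2 fold change of the clock genes between P746 and P203 was 0.07, beside 0.25 over all loci tested, and 5 of the genes changed sign there with total counts in place of TMM.

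Whether the response to aphids itself differed was tested as an interaction. Over 15 interactions 1 gene was called (22 at an unadjusted p under 0.05), and DESeq2 called 9, beside 0.453% to 14.7% of the loci it fitted in the single interactions. With edgeR, between 1056 (of 36287) and 10112 (of 35638) loci had an unadjusted p under 0.05 in the single interactions. For GIGANTEA GLYMA09G07240 in Dongnong47, the response at 96 HAI minus that at 48 HAI was -2.00 ± 0.51 on the log2 scale (adjusted p = 0.0361), beside 10.8% of loci called. It was higher in infested than in mock leaves at 48 HAI and had 82.4, 93.2 and 208 CPM in infested against 211, 229 and 179 CPM in mock leaves at 96 HAI. The call held without 2 of the 12 libraries, infested 96 HAI replicate 3 (-2.53, adjusted p = 0.00411) and infested 48 HAI replicate 3 (adjusted p = 0.0336), and was lost without any of the other 10 (adjusted p between 0.0535 and 0.0999, 0.0652 without infested 96 HAI replicate 1). The response at 48 HAI minus that at 24 HAI in Dongnong47 had 0 calls among these genes (1 at an unadjusted p under 0.05, 0 by DESeq2), beside 0.966% of loci. Of the 36335 loci tested there, 6279 had an unadjusted p under 0.05. The corresponding interactions of 48 minus 24 HAI and 96 minus 48 HAI had 0.169% and 1.15% of loci called in P203 and 0.016% and 0.791% in P746, with 0 calls among the 10 genes by edgeR. At 96 minus 48 HAI, 3 genes had an unadjusted p under 0.05 in each of P203 and P746. Beside them were 5016 of 35740 loci in P203 and 4394 of 36411 in P746. DESeq2 called 2 in each, beside 6.24% of the loci it fitted in P203 and 4.95% in P746. At 48 minus 24 HAI both numbers of genes were 0.

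Between genotypes no difference in response was called with edgeR. The interaction of P203 with Dongnong47 had 0.0441%, 0.0822% and 0.173% of loci called at 24, 48 and 96 HAI. At an unadjusted p under 0.05 were 1, 2 and 1 clock genes, beside 1056 of 36287, 4072 of 35264 and 5199 of 36412 loci. That of P746 with Dongnong47 had 0.0136%, 0.0112% and 0.173% of loci called. There 0, 1 and 2 clock genes had such a p, beside 2592 of 36821, 2507 of 35645 and 1554 of 36420 loci. That of P746 with P203 had 0.00272%, 0.0198% and 0.0636% of loci called. There 0, 0 and 5 clock genes had such a p, beside 1570 of 36789, 1736 of 35431 and 4196 of 36150 loci. DESeq2 called 1 gene for P203 with Dongnong47 at 48 HAI, beside 3.62% of the loci it fitted. It called 2 for P746 with P203 at 96 HAI, beside 3.36%, and 0 in the other 7. At 48 HAI, P203 minus Dongnong47 was 1.70 ± 0.62 for GLYMA03G42260 (adjusted p = 0.342). GLYMA07G05410 had 1.53 ± 0.46 (adjusted p = 0.314 with edgeR and 0.0275 with DESeq2).

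As a wider set of the photoperiod pathway, 12 other genes of the CO-like and DBB families were taken from the study's table of transcription factors. The study chose them from these same libraries, so their counts are no independent evidence, and 6 of them lie on chromosomes 14 to 20, where values are missing. CO-like and DBB proteins share the B-box zinc finger of CONSTANS. Infested against mock leaves, 1 of 11 tested rose and 0 fell in P203 at 96 HAI, GLYMA13G33420 (log2 fold change 2.93, adjusted p = 0.031), beside 4.98% of all loci, and 0 were called in the other 8 comparisons. Between 48 and 96 HAI in mock leaves, 2 rose and 3 fell of 12 tested in Dongnong47 beside 18.9% of all loci, 4 rose and 2 fell of 11 in P203 beside 3.71%, and 5 rose and 3 fell of 11 in P746 beside 12.9%. GLYMA13G33420 had log2 fold changes of -4.74, -4.49 and -4.76 in mock leaves of Dongnong47, P203 and P746, and GLYMA07G10161 had -4.11, -3.97 and -3.48, all called. GLYMA13G11592, of the DBB family, rose by 2.43, 2.23 and 1.92 in the same comparisons. Infested leaves of Dongnong47 had 3 that rose and 3 that fell of 11 tested at 48 against 24 HAI, beside 32.5% of all loci. At 96 against 48 HAI they had 1 that rose, beside 2.44%. Infested leaves of P203 had 0 at both steps, beside 7.36% and 0.0615% of all loci, and those of P746 had 0, beside 0% at both. At 48 against 24 HAI, mock leaves of Dongnong47 and P746 had 0, beside 4.84% and 8.47%, and those of P203 had 1 that fell, beside 6.97%. In the interactions of treatment with time, GLYMA13G33420 was called at 96 minus 48 HAI in P203 (2.51, adjusted p = 0.0477, beside 1.15% of loci) and P746 (5.42, adjusted p = 0.0497, beside 0.791% of loci). Without P746 infested 48 HAI replicate 3 and 96 HAI replicate 1, the value in P746 was 4.24 (edgeR, adjusted p = 0.114).

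The loci whose levels ran most like those of 2 of these genes were ranked by Spearman's rho over the 54 libraries, among 15136 other loci of chromosomes 1 to 13 with a median of at least 5 CPM. The libraries share their time points, so rho is a description. For GLYMA07G05410 they were GLYMA12G35320 (rho 0.97), GLYMA13G35191 (0.96), GLYMA11G25860 (0.95), GLYMA08G07816 (0.95) and GLYMA02G43540 (0.94). Its partner GLYMA03G42260 (0.91) was at rank 22 and CONSTANS-like GLYMA08G28370 (0.88) at rank 81. TOC1 GLYMA04G33110, GIGANTEA GLYMA09G07240 and ELF3 were at -0.69, -0.69 and -0.63. TOC1 GLYMA05G00880 and GIGANTEA GLYMA10G36600 were at -0.58 and -0.43. For GIGANTEA GLYMA10G36600 the loci were GLYMA07G31850 (0.90), GLYMA11G09270 (0.88), GLYMA06G14150, GLYMA03G39200 and GLYMA04G40640 (0.87 each), and its partner GLYMA09G07240 (0.84) was at rank 24. TOC1 GLYMA05G00880 and ELF3 were at 0.69 and 0.65, and TOC1 GLYMA04G33110 was at 0.33 (rank 4535).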

How the data were processed

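RNA was taken from caged leaf areas of 54 soybean samples and sequenced. The authors trimmed reads with SeqPrep and Sickle, aligned them with HISAT2 to Glycine_max_v2.1 and counted them with StringTie, and the labels also name CASAVA 1.8 and Bowtie. The deposited files hold estimated counts per gene or assembled locus. Of these, 18.0% to 20.4% per library at 24 HAI and 21.5% to 23.3% at 48 and 96 HAI were not whole and were rounded. No column of per-sample values was left unused, and 0 of 59048 RefSeq genes matched the identifiers.

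Counts were tested with edgeR 4.0.16 (R 4.3.3, limma 3.58.1), with TMM factors, filterByExpr (minimum count 10, minimum total 15), the quasi-likelihood test and Benjamini-Hochberg adjustment over all loci, fitted on the libraries of each comparison. Calls needed a log2 fold change of 1 or more in either direction together with an adjusted p below 0.05. SE was the absolute log2 fold change divided by the square root of F. DESeq2 1.42.0 was an alternative. The scripts were tested on simulated data. Between 16596420 and 34982780 counts per library set the precision. All 10 genes are named, with the CO-like and DBB genes of the study and the 5 loci of most similar pattern for GLYMA07G05410 and GLYMA10G36600. The genes, lists and tests were chosen with earlier results of these data known.

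Groups share replicate numbers, and the labels name no shared plant or day. Same-numbered libraries deviated together (every correlation over 0.1, over genes with a mean of at least 5 CPM) in 5 of 30 comparisons. These were infested against mock leaves of Dongnong47 at 24 HAI (0.193 to 0.615) and 96 HAI (0.104 to 0.334), 96 against 48 HAI in mock leaves of Dongnong47 (0.231 to 0.457) and P203 (0.210 to 0.527), and mock leaves of P746 against Dongnong47 at 48 HAI (0.231 to 0.474).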

Additional observations from a re-analysis of the deposited data

Results flagged for a closer look

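The response of GIGANTEA GLYMA09G07240 in Dongnong47 differed between 96 and 48 HAI by -2.00 on the log2 scale in a test of the difference itself (edgeR, adjusted p = 0.0361), beside 10.8% of all loci called. The call was lost without any of 10 of the 12 libraries (adjusted p between 0.0535 and 0.0999), and in a single fit of all 54 libraries the difference was -1.99 (adjusted p = 0.339).

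Among pairs of comparisons that share a genotype or a time, 4 had all infested libraries on opposite sides of the mock libraries in the 2 comparisons. How often this holds over all loci was not counted. GLYMA07G05410 at 48 HAI had a log2 fold change of 0.55 in P203 and -0.94 in Dongnong47, and the difference of 1.53 was not called (edgeR, adjusted p = 0.314, DESeq2 0.0275). TOC1 GLYMA04G33110 in P746 had -2.09 at 96 HAI and 0.65 at 48 HAI, a difference of -2.73 (edgeR, adjusted p = 0.157, DESeq2 0.00423). TOC1 GLYMA06G21120 in P746 had -2.15 at 96 HAI and 0.94 at 24 HAI, and this difference was not tested. GIGANTEA GLYMA10G36600 at 96 HAI had -0.31 in P746 and 0.35 in P203, a difference of -0.69 (edgeR, adjusted p = 0.428). The P746 values at 48 and 96 HAI each include 1 of the infested libraries that stood apart.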

How the results depend on the processing

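No call reversed under any alternative run. The 3 calls of infested against mock leaves became 9 with DESeq2, 0 without the filter on low counts, 0 with the replicate number as a block, and between 0 and 1 when the lowest or highest count of each comparison with 1 library left out was summed. In Dongnong47 at 48 HAI, 0 calls became 1 with genes of chromosomes 1 to 13 alone and 2 with DESeq2 (0 to 1 with 1 library left out). At 96 HAI, the 1 call of each genotype became 0 without the filter, 0 with the replicate block and 0 in every fit with 1 library left out. It became 0 in Dongnong47, 2 in P203 and 0 in P746 with chromosomes 1 to 13 alone, 3 in P203 and 3 in P746 with DESeq2, and 0 in Dongnong47 and 3 in P746 with a single fit of 54 libraries. The 31 calls over time became 55 with DESeq2, 8 with the replicate block and at fewest 11 with 1 library left out. The 2 calls between genotypes became 8 with DESeq2, 1 without the filter, 0 with the single fit and 0 to 4 with 1 library left out. The 1 call among interactions became 9 with DESeq2, 2 with chromosomes 1 to 13 alone, 2 with the single fit and at fewest 0 with 1 library left out. The cause of these changes was not tested. Of 37 calls, 36 stayed with RLE factors, 37 with the adjusted p alone, 33 with chromosomes 1 to 13 alone, 26 without the filter, 25 with the single fit and 9 with the replicate block. In the 25 comparisons where same-numbered libraries did not deviate together, the block is no pairing. Leaving out both P746 libraries that stood apart and scaling by total counts were chosen after seeing the data. The morning minus evening group means moved by more than 1 SD in 10 of 18 groups with either the GIGANTEA or the TOC1 genes alone, in 1 with a pseudocount of 2 and in 0 with the other settings. GLYMA13G07030, with a median estimated count of 3.5, is too low for most comparisons.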
